A study of Homo sapiens with 12 samples.

Results

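The genes described here are 10 members of the NRF2 antioxidant response, chosen by symbol from the 63568 genes of the expression table: NFE2L2, KEAP1, GCLC, GCLM, GSR, TXNRD1, SRXN1, NQO1, HMOX1 and OSGIN1. All 10 matched 1 row each and all 10 passed the filter on low values. No cut on measured values was used to choose them, but the choice was made with earlier results of these data known.

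RNA-seq of polyadenylated RNA was made from LNCaP, an androgen-sensitive line derived from a lymph node metastasis of prostate cancer. The cells were transfected with a pool of non-targeting siRNAs (si-NT) or with 1 of 2 siRNAs against SMARCA4, which encodes BRG1, the ATPase of the SWI/SNF chromatin remodelling complex. They were collected at 72 h, or were split, transfected a further time and collected at 144 h. Each time point held 2 si-NT libraries and 4 BRG1 depleted libraries, 2 for each siRNA, which makes 12 in all. The siRNAs are called 2 and 3 here, as in the expression table. The sample titles number them 1 and 2, and 1 library at 72 h carries both numbers in its labels, so a library of siRNA 2 or 3 could not be tied to 1 title. Depletion was transient in a single cell line, and the labels do not say whether replicates were separate cultures, so the p-values measure only the spread between these libraries, which may be technical.

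NFE2L2 encodes NRF2, a transcription factor that binds antioxidant response elements together with small MAF proteins. In unstressed cells KEAP1 holds NRF2 and passes it to a CUL3 ubiquitin ligase, and oxidants or electrophiles that modify KEAP1 let NRF2 accumulate in the nucleus. Its control is therefore largely on the protein, which RNA-seq does not measure, and its activity is usually read from target genes that make glutathione, recycle thioredoxin and detoxify quinones and heme.

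The antioxidant response element has the core TGACNNNGC, and the stretches below show where that core lay in the promoters of the members. Promoters of 300 bases, from 250 bases before to 50 after the start, were taken from RefSeq (GRCh38.p14) and searched on both strands. Of the 8 members with an entry (all but GSR and HMOX1), 3 held the core, GCLM, KEAP1 and TXNRD1, whereas 16.1% of the 27305 genes with an entry did. The core was not found in the windows of NFE2L2, GCLC, SRXN1, NQO1 or OSGIN1, which says only that these letters are not in these windows. The capitals mark the core, and each stretch is printed 5′ to 3′ on the chromosome strand that carries it, which is named before it. A match is a description of letters and not of binding. 1 site was found for GCLM (chr1:93909446-93909474), 2 for KEAP1 (chr19:10502807-10502835 and chr19:10502784-10502812) and 3 for TXNRD1 (chr12:104215670-104215698, chr12:104215761-104215789 and, at a separate start, chr12:104286920-104286948). GCLM and KEAP1 lie on the reverse strand and TXNRD1 on the forward strand. The core is centred 30 bases before the start in GCLM, 50 and 27 in KEAP1, and 95, 4 and 98 in TXNRD1. The core TGACTAAGC is the same in the GCLM site and in the KEAP1 site nearer to the start.
GCLM, forward strand: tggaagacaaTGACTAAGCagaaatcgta
KEAP1, reverse strand: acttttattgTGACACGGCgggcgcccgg
KEAP1, forward strand: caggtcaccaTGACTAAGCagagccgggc
TXNRD1, forward strand: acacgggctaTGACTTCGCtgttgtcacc
TXNRD1, reverse strand: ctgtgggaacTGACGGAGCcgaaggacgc
TXNRD1, separate start, reverse strand: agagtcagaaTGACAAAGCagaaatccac

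Levels are given in TPM, which is scaled to gene length and to a fixed total per library, so levels of different genes can be set side by side. SMARCA4 was at 97.0 and 73.4 TPM in the si-NT libraries at 72 h and at 17.5 to 21.7 TPM in the 4 depleted ones. At 144 h it was at 94.5 and 107 TPM against 11.4 to 17.4 TPM. The groups were far apart at both times, and every library matched its label as si-NT or BRG1 depleted. SMARCA4 levels do not check the siRNA number, the time point or the replicate. The log2 fold change of SMARCA4 was -2.07 at 72 h and -2.66 at 144 h. In each library 14706 to 15355 genes were at 1 TPM or more, spike-in transcripts made up 0.805% to 1.97% of TPM, and RNA of mitochondrially encoded genes 12.7% to 16.6%. The read depth is unknown, because TPM keeps no count. The 8 luminal prostate markers were all expressed, with a summed level of 1805 to 2695 TPM. Of the 9 markers of other cell types with a row, 8 stayed below 0.3 TPM in every library and 1 of these was at 0 throughout, and COL1A1, a fibroblast collagen, made up nearly all of the summed 3.32 to 9.13 TPM.

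At 72 h none of the 10 NRF2 genes was called, and at 144 h NFE2L2 and KEAP1 rose while none fell, although spike-in scaling turned the NFE2L2 estimate to -0.15. The members' median log2 fold change was 0.05 at 72 h and 0.11 at 144 h, beside 0.06 and 0.03 over the 16337 genes tested, and under spike-in scaling it turned to -0.15 and -0.28, beside -0.12 and -0.31. With median-of-ratios scaling the members' median was -0.019 and 0.079. A gene was called at an adjusted p below 0.05 in limma with Benjamini-Hochberg adjustment over all genes tested. By that rule 1.68% of all genes were called at 72 h and 24.4% at 144 h (13.6% higher and 10.8% lower), so 2 of 10 members was close to the background at 144 h. At an unadjusted p below 0.05, 1 member passed at 72 h (GSR) and 4 at 144 h (NFE2L2, KEAP1, GCLM and NQO1).

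**Figure D1:**
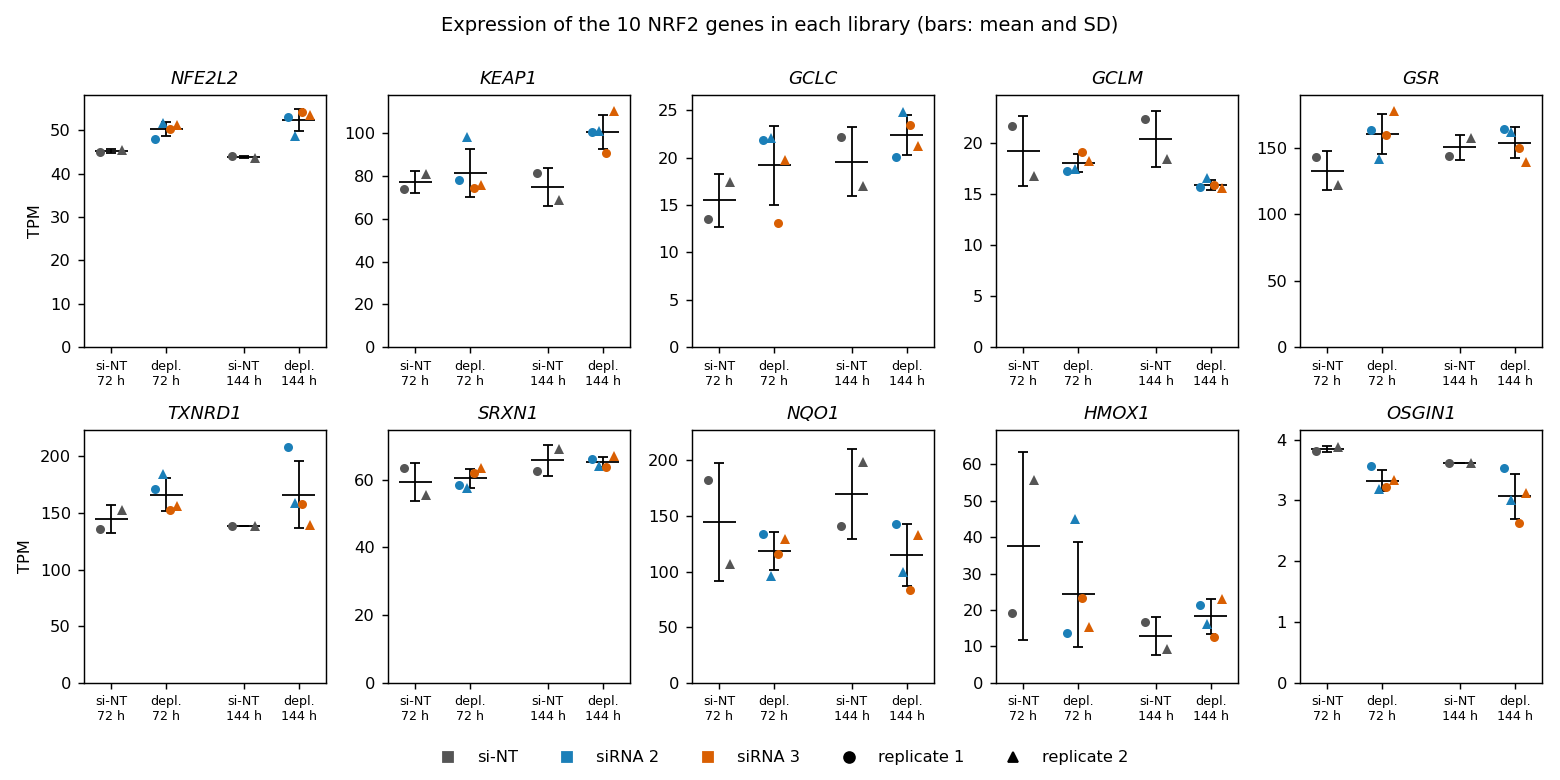
TPM of each of the 10 NRF2 genes (y axis, from 0) in si-NT and BRG1 depleted (depl.) libraries at 72 h and 144 h, with colours for the siRNA, shapes for the replicate, and lines for the mean and SD. In TPM all 8 depleted libraries of NFE2L2 (48.0 to 54.2 TPM) lie above all 4 si-NT libraries (43.7 to 45.5 TPM), a direction that turns under spike-in scaling, while HMOX1 spans 9.20 to 55.7 TPM with the groups overlapping at both times.

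NFE2L2, the transcription factor gene itself (chr2:178083395-178257484, GRCh37), was at 44.9 and 45.5 TPM with si-NT at 72 h. The siRNA 2 libraries were at 48.0 and 51.6 TPM and the siRNA 3 libraries at 50.3 and 51.2 TPM. All 4 depleted libraries were thus higher than both controls. At 144 h NFE2L2 was at 44.01 and 43.68 TPM with si-NT, at 53.2 and 48.6 TPM with siRNA 2, and at 54.2 and 53.4 TPM with siRNA 3. Again no library overlapped, and the controls were within 2 TPM of each other over the whole time course. The log2 fold change was 0.15 ± 0.076 (SE) at 72 h, with an adjusted p of 0.407 in limma, and 0.25 ± 0.076 at 144 h, with an adjusted p of 0.0336. Over both time points the log2 fold change was 0.20 ± 0.054, with a limma adjusted p of 0.0198, and NFE2L2 was the only 1 of 10 members called, beside 24.7% of all genes.

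KEAP1, the cysteine-rich sensor that presents NRF2 for degradation (chr19:10596801-10614234, GRCh37), was at 73.8 and 81.0 TPM with si-NT at 72 h. The depleted libraries were at 78.2 and 98.3 TPM with siRNA 2 and at 74.3 and 75.7 TPM with siRNA 3. These groups overlapped, and the second siRNA 2 library stood above the other 3 depleted ones. At 144 h the si-NT libraries were at 81.3 and 68.6 TPM, the siRNA 2 libraries at 101 and 101 TPM, and the siRNA 3 libraries at 91.0 and 110 TPM. All 4 depleted libraries were then above both controls. The log2 estimate for KEAP1 was 0.07 ± 0.13 at 72 h and 0.42 ± 0.13 (SE) at 144 h, with a limma adjusted p of 0.864 and of 0.0296.

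Both calls at 144 h depended on the scaling and on single libraries. With median-of-ratios scaling NFE2L2 was not called at 144 h, with a limma adjusted p of 0.0950, nor over both time points, with one of 0.101, while KEAP1 stayed called at 144 h. When the libraries were scaled to the spike-in transcripts the log2 fold change at 144 h turned to -0.15 for NFE2L2 and was 0.02 for KEAP1, and neither was called. The median over all genes under that scaling was -0.12 (72 h) and -0.31 (144 h), and relative to that median NFE2L2 stood at 0.17 and KEAP1 at 0.34 at 144 h. By siRNA, the median over all genes at 144 h was -0.076 with siRNA 2 and -0.55 with siRNA 3. Spike-in transcripts made up 0.805% and 1.34% of TPM in the si-NT libraries at 144 h. In the depleted ones they made up 1.04% to 1.97%, so the groups overlapped and the spike-in scaling rests on shares that varied within groups. Over 21 alternatives the limma adjusted p ranged from 0.0119 to 0.783 for NFE2L2, which was called in 10, and from 0.00873 to 0.969 for KEAP1, which was called in 15. Leaving out either si-NT library at 144 h ended both calls, with a limma adjusted p of 0.150 and 0.193 for NFE2L2 and of 0.0550 and 0.283 for KEAP1. Both calls also ended without the first siRNA 2 library or the second siRNA 3 library at 144 h. Without the second siRNA 2 library at 144 h NFE2L2 alone stayed called, and without the first siRNA 3 library KEAP1 alone. With the replicate number as a block, NFE2L2 had an adjusted p of 0.0504 in limma and KEAP1 alone stayed called.

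**Figure D2:**
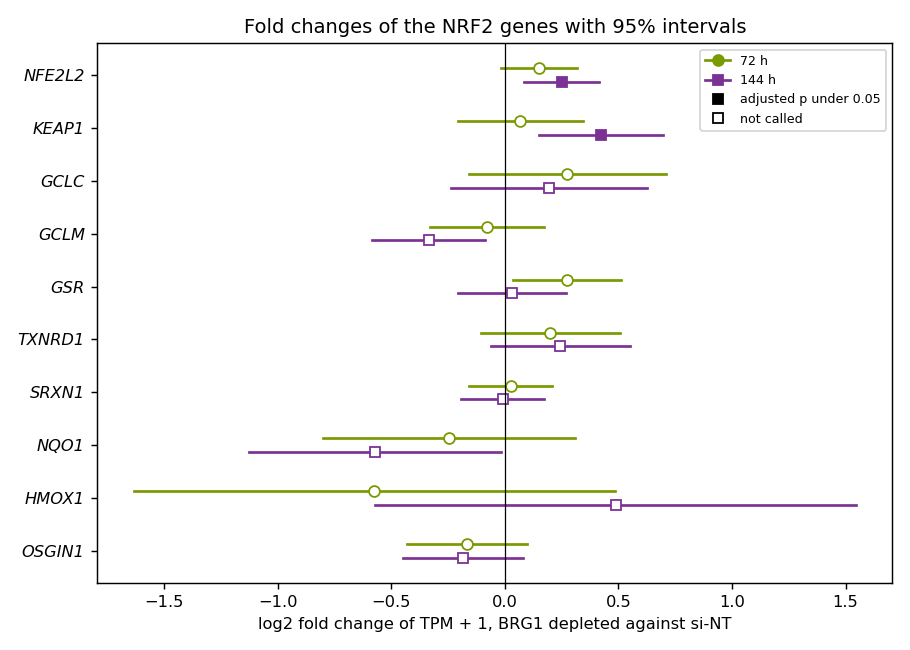
Log2 fold change of TPM + 1, BRG1 depleted against si-NT (x axis), for each NRF2 gene at 72 h (circles) and 144 h (squares), with lines for the 95% interval from limma and filled symbols for an adjusted p below 0.05. Only NFE2L2 (0.25, which turned to -0.15 under spike-in scaling) and KEAP1 (0.42) at 144 h are filled, and the interval of HMOX1 is the widest.

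Of the members that make and recycle glutathione, none was called at either time. GCLC and GCLM encode the catalytic and modifier subunits of glutamate-cysteine ligase, the rate-limiting enzyme of glutathione synthesis, and GSR encodes the reductase that regenerates glutathione from its oxidised form.

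GCLM (chr1:94350755-94375012, GRCh37) was at 22.3 and 18.4 TPM with si-NT at 144 h, at 15.6 and 16.6 TPM with siRNA 2 and at 15.8 and 15.5 TPM with siRNA 3. The 4 depleted libraries were all lower than both controls and were within about 1 TPM of each other. This was a log2 fold change of -0.34 ± 0.11 (SE), with a limma adjusted p of 0.0515. The p lay just outside the threshold, and GCLM was called lower in 5 of 21 alternatives, with adjusted p from 0.0283 to 0.396 in limma. At 72 h GCLM was at 21.6 and 16.7 TPM with si-NT and between 17.2 and 19.1 TPM in the depleted libraries, which lay between the controls.

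GCLC, the partner subunit, was at 13.5 and 17.5 TPM with si-NT at 72 h, at 21.9 and 22.1 TPM with siRNA 2 and at 13.1 and 19.7 TPM with siRNA 3. At 144 h it was at 22.2 and 17.0 TPM with si-NT and between 20.1 and 24.8 TPM in the depleted libraries. The groups overlapped at both times. For GCLC the log2 estimate was 0.28 ± 0.20 at 72 h and 0.19 ± 0.20 at 144 h, so the catalytic subunit and the modifier subunit had estimates of opposite sign at both times, although neither was called and spike-in scaling turned GCLC to -0.19 at 144 h.

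GSR was at 143 and 122 TPM with si-NT at 72 h, at 164 and 142 TPM with siRNA 2 and at 160 and 178 TPM with siRNA 3. The lowest depleted library was just below the higher control. Its log2 fold change was 0.27 ± 0.11, with an unadjusted p of 0.0277 and an adjusted p of 0.264 in limma. At 144 h GSR was at 144 and 157 TPM against 140 to 164 TPM, a log2 fold change of 0.03 with a 95% interval from -0.21 to 0.27.

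Thioredoxin and peroxiredoxin repair is represented by TXNRD1, the cytosolic thioredoxin reductase, and SRXN1, sulfiredoxin, which rescues over-oxidised peroxiredoxins. TXNRD1 (chr12:104609557-104744085, GRCh37) was at 136 and 153 TPM with si-NT at 72 h, at 171 and 185 TPM with siRNA 2 and at 153 and 157 TPM with siRNA 3. At 144 h the si-NT libraries were nearly equal, at 138 and 139 TPM, and the depleted ones were at 209 and 159 TPM with siRNA 2 and at 158 and 139 TPM with siRNA 3. The groups did not overlap at 144 h, but the lowest depleted library, at 139.17 TPM, was hardly above the higher control, at 138.75 TPM. For TXNRD1 the log2 estimate was 0.20 ± 0.14 at 72 h and 0.24 ± 0.14 at 144 h, with limma adjusted p of 0.569 and 0.232, and spike-in scaling turned the latter to -0.16.

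SRXN1 was the steadiest of the members with a level above 50 TPM. It ranged from 55.4 to 68.9 TPM over the 12 libraries, and the controls spanned the depleted libraries at 144 h. The 95% interval of its log2 fold change ran from -0.16 to 0.21 at 72 h (estimate 0.03) and from -0.19 to 0.17 at 144 h (estimate -0.0092).

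NQO1, the quinone reductase most often used as a readout of NRF2, was at 182 and 107 TPM with si-NT at 72 h, at 134 and 95.5 TPM with siRNA 2 and at 116 and 129 TPM with siRNA 3. At 144 h it was at 141 and 198 TPM with si-NT, at 143 and 99.4 TPM with siRNA 2 and at 83.7 and 133 TPM with siRNA 3. The controls differed from each other as much as from the depleted libraries, and the groups overlapped at both times. For NQO1 the log2 estimate was -0.25 ± 0.25 at 72 h and -0.57 ± 0.25 (SE) at 144 h. The latter had an unadjusted p of 0.0442 and an adjusted p of 0.125 in limma, and no alternative called it at 144 h.

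HMOX1, which encodes the inducible heme oxygenase, was the most variable member. At 72 h it was at 19.2 and 55.7 TPM with si-NT, at 13.8 and 45.1 TPM with siRNA 2 and at 23.2 and 15.2 TPM with siRNA 3. At 144 h it was at 16.6 and 9.20 TPM with si-NT, at 21.3 and 16.1 TPM with siRNA 2 and at 12.6 and 23.1 TPM with siRNA 3. The second replicates of si-NT and of siRNA 2 at 72 h stood above the other 10 libraries, a split that did not follow the depletion. MAFF, which encodes a small MAF partner of NRF2, was at 3.32 and 3.22 TPM in these 2 libraries and at 0.19 to 1.94 TPM in the other 10. RNA of mitochondrially encoded genes made up 14.1% and 16.6% of TPM in them and 12.7% to 16.0% in the other 10, and its part in the HMOX1 values was not tested. The log2 fold change of HMOX1 was -0.58 ± 0.48 at 72 h and 0.49 ± 0.48 at 144 h, with limma adjusted p of 0.652 and 0.504.

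OSGIN1, an oxidative stress induced growth inhibitor, was the lowest member. It was at 3.81 and 3.88 TPM with si-NT at 72 h and at 3.56, 3.18, 3.22 and 3.33 TPM in the depleted libraries. At 144 h it was at 3.61 TPM in both si-NT libraries and at 3.53, 3.00, 2.63 and 3.12 TPM in the depleted ones. All 8 depleted libraries were thus below all 4 controls, as the NFE2L2 libraries were all above. The log2 estimate for OSGIN1 was -0.17 ± 0.12 at 72 h and -0.18 ± 0.12 at 144 h, with limma adjusted p of 0.589 and 0.298. The scale of TPM + 1 understates the change of a gene at this level.

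Counted by overlap alone, 2 of 10 members had groups that did not overlap at 72 h (NFE2L2 higher and OSGIN1 lower), beside 23.3% of all genes tested. At 144 h there were 5 of 10, with NFE2L2, KEAP1 and TXNRD1 higher and GCLM and OSGIN1 lower, beside 48.6% (26.1% higher and 22.5% lower). Over both time points, 8 against 4 libraries, NFE2L2 and OSGIN1 did not overlap, beside 11.5% of all genes. The shares of members were near those of all genes at 72 h and 144 h.

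By mean level over the 12 libraries the order was TXNRD1 (158 TPM), GSR (152 TPM), NQO1 (130 TPM), KEAP1 (86.2 TPM), SRXN1 (62.7 TPM), NFE2L2 (49.1 TPM), HMOX1 (22.6 TPM), GCLC (19.7 TPM), GCLM (17.9 TPM) and OSGIN1 (3.37 TPM). The ranges of TXNRD1, GSR and NQO1 overlapped, as did those of HMOX1, GCLC and GCLM, so the order within each of these groups was not beyond the spread. KEAP1 also overlapped NQO1 and, at 68.6 TPM, the highest SRXN1 library, and the highest HMOX1 library lay above all NFE2L2 libraries. SRXN1, from 55.4 TPM, stayed above the highest NFE2L2 library, at 54.2 TPM.

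The comparisons between time points and between siRNAs called no member, and siRNA 3 against siRNA 2 called 0.141% of all genes at 72 h and 0.331% at 144 h. The effect at 144 h minus that at 72 h ranged from -0.33 (NQO1) to 1.06 (HMOX1) on the log2 scale, with a lowest limma adjusted p of 0.451 (KEAP1, difference 0.36) and 0 of 10 at an unadjusted p below 0.05. That test called 0.0184% of all genes, so the effect on KEAP1 was not shown to differ between the time points. Between the depleted libraries at 144 h and at 72 h, 0 of 10 members and 4.27% of all genes were called, and 1 member had an unadjusted p below 0.05. This was KEAP1, with a log2 difference of 0.31, a 95% interval from 0.083 to 0.53, an unadjusted p of 0.0115 and an adjusted p of 0.113 in limma. Between si-NT at 144 h and at 72 h, 0 of 10 members and 0.0% of all genes were called in limma, and 1 member, HMOX1 (log2 difference -1.34), had an unadjusted p below 0.05.

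Both siRNAs gave NFE2L2 estimates of the same sign. At 144 h the log2 fold change was 0.21 ± 0.084 (SE) with siRNA 2 and 0.29 ± 0.084 with siRNA 3, with limma adjusted p of 0.108 and 0.0392. Of all genes 21.3% and 20.2% were called for these siRNAs, and 0 and 1 of the 10 members. The difference between the siRNAs was 0.08 with a 95% interval from -0.11 to 0.27. KEAP1 was at 0.43 and 0.42, a difference of -0.01 with an interval from -0.32 to 0.30. These estimates are in TPM without spike-in scaling. Under spike-in scaling the median over all genes at 144 h was -0.076 with siRNA 2 and -0.55 with siRNA 3. Estimates of single genes by siRNA under that scaling are not reported here, so the shared sign is shown for TPM only. TXNRD1 differed most at that time, with 0.39 for siRNA 2 and 0.10 for siRNA 3. The difference of -0.29 had an unadjusted p of 0.0495 and an adjusted p of 0.374 in limma, and TXNRD1 was the 1 member with an unadjusted p below 0.05 between the siRNAs at 144 h. At 72 h 0 of 10 passed even unadjusted, and GCLC had the estimate farthest from 0, -0.43 with an interval from -0.89 to 0.04.

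The wider lists give the other genes of the pathway. Of 34 other genes listed as NRF2 targets, 30 were tested, 14 were called and the median log2 fold change was -0.11, beside 0.03 for all genes and a background of 24.4%. Under spike-in scaling that median was -0.51. The 5 that rose were UGDH, IDH1, BLVRB, EPHX1 and GSTM3, and the 9 that fell were TKT, ME1, MGST1, CBR3, AKR1C2, SLC7A11, AKR1C1, PRDX1 and PGD. TKT and PGD are enzymes of the pentose phosphate pathway, ME1 is malic enzyme and IDH1 is isocitrate dehydrogenase, and PGD, ME1 and IDH1 make NADPH. AKR1C1 and AKR1C2 are near-identical copies whose reads may be split by the counting, and both were below 2 TPM.

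**Figure D3:**
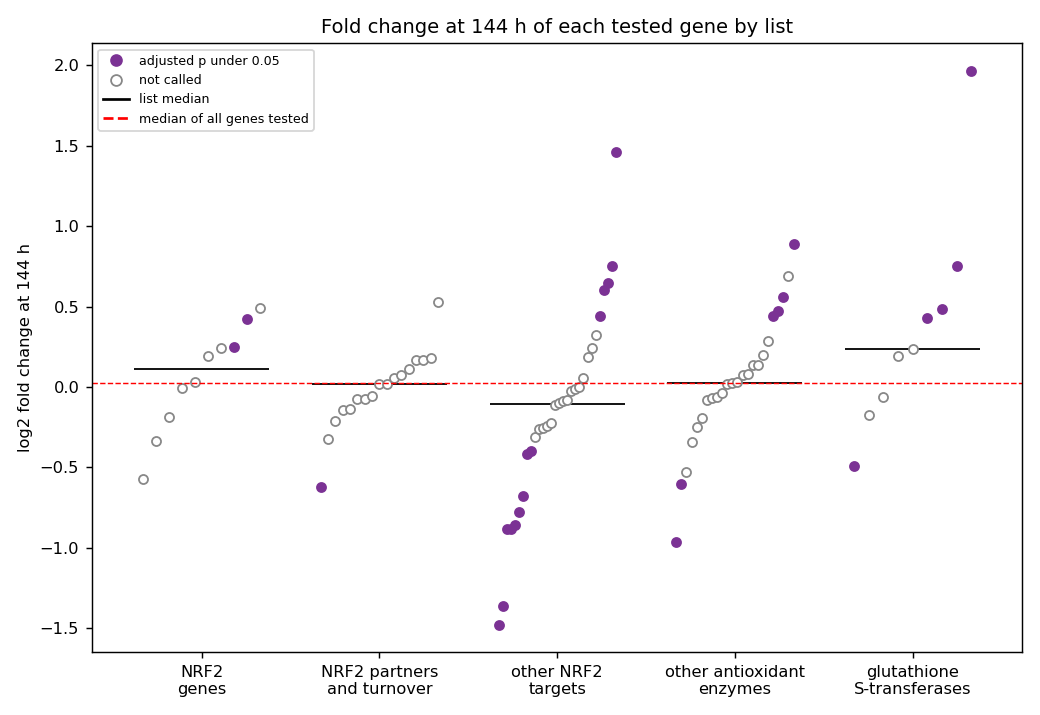
Log2 fold change at 144 h (y axis) of each tested gene in the 10 NRF2 genes and in 4 wider lists, ordered by size within a list, with filled points for an adjusted p below 0.05, black lines for the list median and a dashed line for the median of all genes (0.03). The other NRF2 targets spread from -1.48 to 1.46 with called genes on both sides, whereas the 10 NRF2 genes stay between -0.57 and 0.49; spike-in scaling lowers all of them and moves the median of all genes to -0.31.

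UGDH, which makes UDP-glucuronate for glucuronidation, was at 51.1 and 59.6 TPM with si-NT at 72 h and at 78.4 to 88.8 TPM in the depleted libraries. At 144 h it was at 52.8 and 53.1 TPM against 125 to 183 TPM. The log2 estimate for UGDH was 0.61 ± 0.13 at 72 h and 1.46 ± 0.13 (SE) at 144 h, with limma adjusted p of 0.0416 and 5.04e-05. It was the 1 of 30 called at 72 h. That call was lost on leaving out any of the 6 libraries of 72 h, either si-NT library of 144 h or the second library of either siRNA at 144 h, with a limma adjusted p between 0.0541 and 0.261. It was also lost with no filter (0.0632), no trend (0.0617), the replicate block (0.0680), the 6 libraries of 72 h alone (0.101), median-of-ratios scaling (0.0752) and spike-in scaling (1.00), all as limma adjusted p.

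IDH1 was at 219 and 262 TPM with si-NT at 144 h and at 392 to 416 TPM after depletion, a log2 fold change of 0.75 ± 0.10 with a limma adjusted p of 0.000717. TKT, transketolase, was at 242 and 241 TPM against 137 to 172 TPM, and its log2 fold change was -0.68 ± 0.11 with a limma adjusted p of 0.00187. ME1 was at 64.1 and 74.1 TPM against 31.4 to 48.5 TPM, with a log2 fold change of -0.88 ± 0.15 and a limma adjusted p of 0.00222. For IDH1, TKT and ME1 alike the groups did not overlap at 144 h, beside 48.6% of all genes tested. These genes were named for a small adjusted p at 144 h, so the separation follows from that choice. Under spike-in scaling 6 of the 30 were called, all lower, and none of the 14 changed sign. Without the second si-NT library at 144 h 6 were called, UGDH, IDH1, BLVRB, EPHX1, ME1 and TKT, and without the first 10 were called.

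Partners of NRF2 and genes for its turnover were mostly not called. Of 17 tested, 1 fell at 144 h beside 24.4% of all genes, and 0 were called at 72 h, beside 1.68%, and the median was 0.02 at 144 h, or -0.38 under spike-in scaling. PALB2, a BRCA2 partner that also binds KEAP1, was at 8.49 and 9.50 TPM with si-NT and at 4.96 to 5.82 TPM after depletion, a log2 fold change of -0.62 ± 0.13 with a limma adjusted p of 0.00639. Without the second si-NT library at 144 h that call was lost, with a limma adjusted p of 0.0915, and it was lost with spike-in scaling as well, with one of 0.0582. BACH1, the repressor that competes with NRF2 at the same elements, had a log2 fold change of -0.32, MAFF of 0.53 and CUL3, the ligase scaffold, of 0.17, with limma adjusted p of 0.225, 0.329 and 0.337. Spike-in scaling turned CUL3 to -0.23.

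Of 24 tested antioxidant enzymes outside the NRF2 lists, 4 rose at 144 h (PRDX5, CAT, GPX4 and OPLAH) and 2 fell (GGCT and PRDX4), with a median of 0.03, or -0.36 under spike-in scaling, and 0 were called at 72 h. The share called at 144 h, 25.0%, was near the 24.4% over all genes. PRDX5, a peroxiredoxin, was at 358 and 344 TPM with si-NT and at 583 to 728 TPM after depletion, a log2 fold change of 0.89 ± 0.13. CAT, catalase, was at 83.5 and 82.7 TPM against 114 to 133 TPM, a log2 fold change of 0.56 ± 0.086. GGCT, which acts in glutathione turnover, was at 185 and 211 TPM against 96.4 to 105 TPM, a log2 fold change of -0.96 ± 0.15. PRDX4, the peroxiredoxin of the endoplasmic reticulum, was at 134 and 143 TPM against 78.8 to 105 TPM, a log2 fold change of -0.60 ± 0.14. The limma adjusted p was 0.00112, 0.00124, 0.00152 and 0.0104 in this order. Without either si-NT library at 144 h, PRDX5, CAT and GGCT were the 3 still called, and under spike-in scaling GGCT was the only 1.

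Among the glutathione S-transferases, which conjugate glutathione to electrophiles, 9 of 16 were tested and 5 were called at 144 h, GSTA4, MGST3, GSTK1 and GSTT2B higher and GSTO1 lower. Over all genes 24.4% were called. The list median was 0.24, and it turned to -0.12 under spike-in scaling. GSTA4, which acts on lipid peroxidation products, was at 27.0 and 26.9 TPM with si-NT, at 82.9 and 81.1 TPM with siRNA 2 and at 145 and 140 TPM with siRNA 3. This gave a log2 fold change of 1.96 ± 0.26 (SE), with a limma adjusted p of 0.000569, and it was the 1 gene of the list called under spike-in scaling. Log2 fold changes were 0.75 for MGST3, 0.49 for GSTK1 and -0.49 for GSTO1, with limma adjusted p of 0.00114, 0.00229 and 0.0211. Leaving out either si-NT library at 144 h left GSTA4, MGST3 and GSTK1 called. GSTP1 was among the 7 genes that did not reach the filter.

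**Figure D4:**
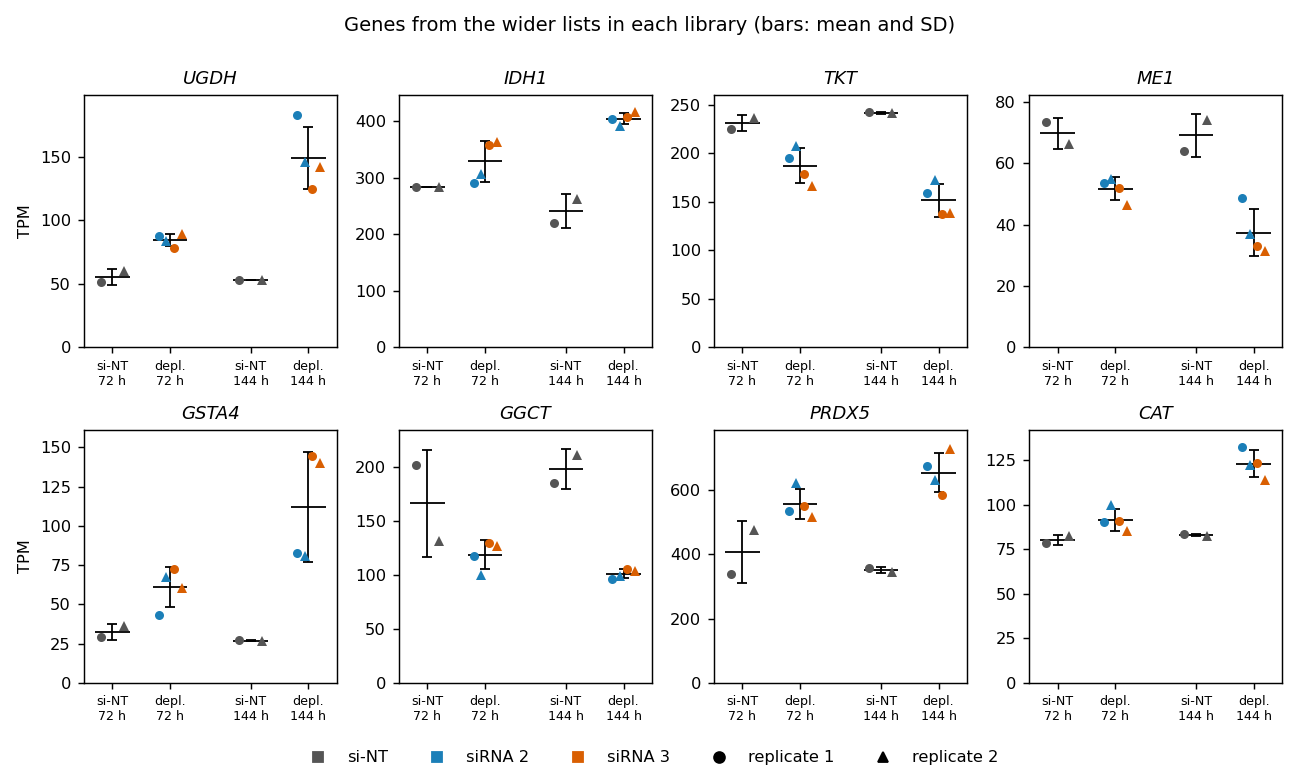
TPM (y axis, from 0) of 8 genes from the wider lists in si-NT and BRG1 depleted (depl.) libraries at 72 h and 144 h, with colours for the siRNA, shapes for the replicate, and lines for the mean and SD. At 144 h the si-NT and depleted libraries of each gene do not overlap, with UGDH, IDH1, GSTA4, PRDX5 and CAT higher and TKT, ME1 and GGCT lower after depletion. The genes were named for a small adjusted p at 144 h, and 48.6% of all genes tested did not overlap at that time. Under spike-in scaling only ME1, GSTA4 and GGCT of these were called at 144 h.

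Few of the listed sources of oxidants passed the filter on low values, and the list held no genes of the respiratory chain. Of 12 genes for NADPH oxidases and other sources, NOX5 and MAOA were tested and neither was called, with log2 fold changes at 144 h of -0.50 and 0.11 and limma adjusted p of 0.0760 and 0.699. Of the luminal markers, KRT8 rose at 144 h (log2 fold change 0.56), whereas TMPRSS2 and KRT18 were not called (0.65 and 0.11), and COL1A1 was at -0.34, with a limma adjusted p of 0.448. The part of the marker genes in the results above was not tested.

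As a description, the wider-list genes whose levels were most like those of a member over the 12 libraries were found by Pearson's r of log2(TPM + 1) among 82 genes. These libraries share the siRNA groups, so r carries the group differences. The closest to NFE2L2 was GSTA4 (r = 0.94), followed by PRDX5 and IDH1. For KEAP1 it was CAT (0.84), for GCLM CBR3 (0.85), for NQO1 PRDX1 (0.85), for HMOX1 MAFF (0.92), for SRXN1 TXN2 (0.84) and for OSGIN1 ME1 (0.85). HMOX1 and MAFF were both highest in the second si-NT and siRNA 2 libraries at 72 h. Their r carries that split, which did not follow the depletion, and MAFF was low in every library. For TXNRD1 (EP300, 0.71) and GSR (NFE2L3, 0.79) the closest genes were less alike.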

How the data were processed

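Polyadenylated RNA from 12 LNCaP samples was sequenced by the authors as stranded paired-end libraries with ERCC spike-in RNA. Per the labels and the study's methods, reads were trimmed with Trim Galore 0.11.2, mapped to GRCh37 with STAR 2.4.0j and counted into GENCODE genes with featureCounts. The study's methods also name a normalisation of the counts to the ERCC RNA, which was added to a set mass of total RNA. The deposited values are the authors' TPM per gene, which keep no read depth, so no count model could be used and the precision rests on the libraries alone.

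A gene entered the test when 2 or more libraries held 1 TPM or more (16337 genes). The test was run on log2(TPM + 1) with limma 3.58.1 (R 4.3.3), with a trend on mean expression, 4 groups of siRNA class by time, and Benjamini-Hochberg adjustment over all genes tested. A fit with 6 groups compared the siRNAs. Fold changes are on the log2(TPM + 1) scale and errors are SE. The knockdown columns carry siRNA numbers that match no title and were assigned to their group only. The script was tested on simulated data. Identical libraries were looked for and 0 pairs were found.

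The alternatives were a pseudocount of 0.1, no filter, a mean TPM of at least 5, median-of-ratios and spike-in scaling, no trend, the replicate number as a block, the 6 libraries of a time point alone, combined si-NT libraries, and each library left out. Those for the wider lists, and the overlap count over both time points, were added after seeing the data. Wider lists covered NRF2 partners and turnover, other NRF2 targets, other antioxidant enzymes, glutathione S-transferases, oxidant sources, luminal markers and markers of other cell types. Named with values are all members, SMARCA4, and in each list up to 4 genes with the smallest adjusted p at 144 h and up to 4 called at 72 h. Other called genes are named without values. The members and lists were chosen with earlier results of these data known. SOD2 and PECAM1 are not analysed here. Some values of the wider lists are not reported here.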

Additional observations from a re-analysis of the deposited data

Results flagged for a closer look

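Among 66 groups of 4 libraries checked over 33 genes, 1 held a library far from the others: KEAP1 was at 98.28 TPM in the second siRNA 2 library at 72 h, while the other 3 depleted libraries lay between 74.31 and 78.19 TPM. The gap was 0.838 of the range of the group, above Dixon's 95% critical value for 4 samples. Chance alone passes this value in about 1 in 20 groups. Without this library the log2 fold change of KEAP1 at 72 h was -0.02 in place of 0.07, and it was not called either way.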

How the results depend on the processing

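The number of NRF2 genes called at 72 h, between time points, between si-NT groups and between siRNAs was 0 under every alternative run for it. The 2 called at 144 h became 0 with spike-in scaling, and 1 with no trend, with the replicate block and with only the 6 libraries of that time point; leaving out 1 library gave 0 to 3. With median-of-ratios scaling the count at 144 h stayed 2, but as KEAP1 and GCLM, and the 1 called over both times was GCLM in place of NFE2L2. The 1 called over both time points became 0 with spike-in scaling and was 0 to 3 on leaving out 1 library. Replicate numbers were not shown to pair the libraries: deviations of same-numbered libraries correlated from -0.23 to 0.30 over 15 comparisons, 2 of them above 0.1, and the labels name no shared batch. The highest was between siRNA 2 and si-NT at 72 h, and the lowest between siRNA 2 and siRNA 3 at 72 h. The second replicates of siRNA 2 and si-NT at 72 h are also those with the high HMOX1 values, and a link was not tested.

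Spike-in scaling reversed log2 fold changes at 72 h for NFE2L2 (-0.043), KEAP1 (-0.13) and SRXN1 (-0.17), at 144 h for NFE2L2 (-0.15), GCLC (-0.19), GSR (-0.37), TXNRD1 (-0.16), CUL3 (-0.23), MAOA (-0.29) and KRT18 (-0.29), and over both times for NFE2L2 (-0.095). Median-of-ratios scaling reversed GSR at 144 h (-0.0025) and SRXN1 at 72 h (-0.041). Combining the si-NT libraries of both times reversed SRXN1 (-0.047 at 72 h, 0.064 at 144 h), HMOX1 (0.094 at 72 h, -0.18 at 144 h), MAFF (-0.11) and MAOA (-0.032). None of these reversed values was called, and the cause was not tested.

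Leaving out 1 library gave log2 fold changes that crossed 0 at 72 h for KEAP1 (-0.023 to 0.13), GCLM (-0.25 to 0.096), SRXN1 (-0.068 to 0.12), NQO1 (-0.62 to 0.13) and HMOX1 (-1.32 to 0.17), and at 144 h for SRXN1 (-0.078 to 0.060), GSR (-0.033 to 0.094), CUL3 (-0.0026 to 0.33) and MAOA (-0.16 to 0.38). With 2 si-NT libraries a time point, the control level rests on few values, and TPM hold no depth from which counting error could be set.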
